A study of Mus musculus with 3 samples.

Results

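The collagen chains of normal mouse muscle were described from 3 arrays, 1 for each of muscle 1, muscle 2 and muscle 3. A gene was a member when a probe set was assigned to it alone and its symbol was made of Col, a number, the letter a and a number, and 36 of the 12394 genes on the array met this rule, through 58 probe sets. The 3 samples are whole muscle of mice of the genotype "littermate control", aged 3 to 6 weeks, and are the normal tissue set beside tumours of satellite cells, the stem cells of muscle, in the study. Tumour arrays were not analysed here, so there is a single group, and no contrast between conditions. The strain, the muscle sampled, and whether the samples came from separate animals are not stated in the sources used here, so each SD and each p-value describes these samples alone and may reflect technical spread.

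Collagens are extracellular proteins in which 3 chains wind into a triple helix, held together by a repeat with a glycine at regular steps. Fibrillar chains assemble into the cross-striated fibrils that carry tension in tendon and in the sheaths around muscle, fascicles and fibres. Type IV chains form the network of basement membranes, the sheet that coats each muscle fibre and each capillary, and type VI chains form beaded microfilaments between that sheet and the fibrils. Fibroblasts make most of the fibrillar and beaded chains of muscle. In whole tissue, fewer cells of a type and less RNA per cell cannot be told apart.

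All levels are log2 RMA values, in which a difference of 1 is a 2-fold difference in signal. Where a gene has several probe sets, the one with the highest average stands for it. A background level was set in each muscle at the 95th percentile of 98 probe sets that belong to 71 genes of other organs, at 5.67, 5.84 and 5.85 in muscles 1, 2 and 3, and a gene above it is called detected. Of those 71 genes, 5 were themselves detected in all 3 muscles, so a detected gene with a level close to background may be a false call. Probe sets bind with different strength, so levels of different chains are not ranked against each other. The 3 arrays had the same median, 6.12. The tissue label matched its markers, since the muscle fibre genes Acta1, Ckm, Ttn, Myh4 and Tnnt3 were all detected, with a mean level of 13.41 to 13.43 over the list. All 4 fibroblast markers (Pdgfra, Dcn, Lum and Dpt) were detected too, with a mean level of 10.71, 10.66 and 10.61 in muscles 1, 2 and 3.

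Of the 36 collagen chains, 24 (66.7%) were detected in all 3 muscles, 3 in some and 9 in none. Over all 12394 genes, 60.1% were detected in all 3 muscles and 34.9% in none, so the count for the family as a whole lies near that of any gene. By class, detection was complete for the 9 fibrillar and the 3 beaded chains. It held for 5 of 8 basement membrane chains and for 7 of 16 chains of other classes.

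**Figure D1:**
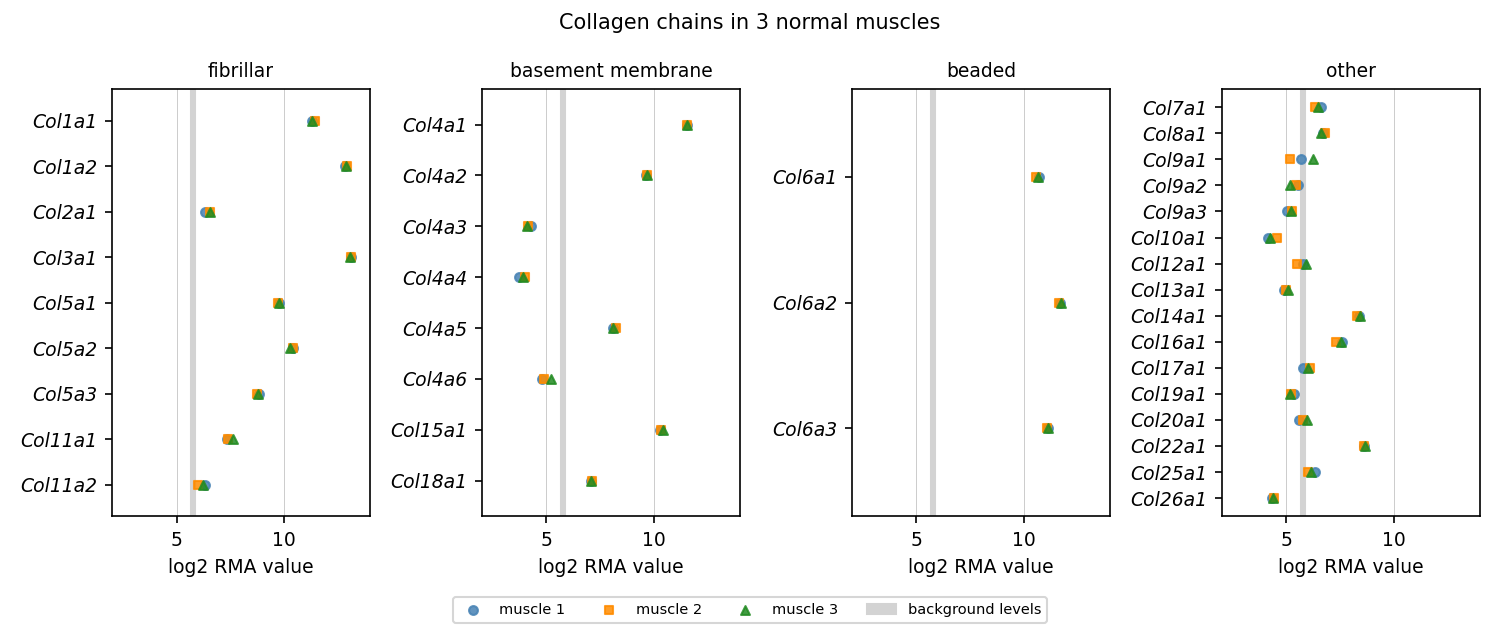
Log2 RMA value (x axis) of each of the 36 collagen chains in muscle 1, muscle 2 and muscle 3, in panels by class, with the background levels of the 3 muscles (5.67 to 5.85) as a grey band. The 9 fibrillar and 3 beaded chains lie right of the band, while the basement membrane and other panels hold chains on both sides. Levels of different chains are not comparable.

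Some collagen genes lie side by side in the genome, and their detection could be set against their position. By RefSeq gene order on GRCm38.p6, Col4a1 and Col4a2 neighbour each other on chromosome 8, Col4a3 and Col4a4 on chromosome 1, Col4a5 and Col4a6 on chromosome X, Col3a1 and Col5a2 on chromosome 1, and Col6a1 and Col6a2 on chromosome 10. Both genes were detected in all 3 muscles in the pairs Col4a1 with Col4a2, Col3a1 with Col5a2 and Col6a1 with Col6a2, neither was in the pair Col4a3 with Col4a4, and the pair on chromosome X was split, with Col4a5 detected and Col4a6 not. Col9a1 and Col19a1, also neighbours on chromosome 1, were detected in 2 muscles and in none. Of all genes, 60.1% were detected in all 3 muscles. How often neighbours share detection over all genes was not counted, so no link between position and detection is drawn.

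Promoter windows were in the RefSeq table for 27 of the 36 genes. The 250 bases before the start of transcription are shown for the divergent pair in which both genes were detected, for the divergent pair that was split, and for 2 fibrillar chains detected in every muscle, 5′ to 3′ on the strand of each gene. Capitals mark 3 motifs, each searched on both strands. They are the GC box with the letters GGGCGG, the CCAAT box with the letters CCAAT and the TATA box with the letters TATAA.
Col4a1: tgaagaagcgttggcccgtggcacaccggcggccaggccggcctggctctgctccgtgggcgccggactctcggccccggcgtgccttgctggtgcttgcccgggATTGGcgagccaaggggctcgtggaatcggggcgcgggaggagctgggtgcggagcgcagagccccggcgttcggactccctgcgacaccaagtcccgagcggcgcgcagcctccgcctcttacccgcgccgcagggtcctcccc
Col4a2: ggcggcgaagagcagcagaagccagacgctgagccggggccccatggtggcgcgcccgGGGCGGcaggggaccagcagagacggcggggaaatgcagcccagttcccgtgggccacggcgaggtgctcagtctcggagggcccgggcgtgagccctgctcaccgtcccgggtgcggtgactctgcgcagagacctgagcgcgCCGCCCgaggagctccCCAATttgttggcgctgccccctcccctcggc
Col4a5: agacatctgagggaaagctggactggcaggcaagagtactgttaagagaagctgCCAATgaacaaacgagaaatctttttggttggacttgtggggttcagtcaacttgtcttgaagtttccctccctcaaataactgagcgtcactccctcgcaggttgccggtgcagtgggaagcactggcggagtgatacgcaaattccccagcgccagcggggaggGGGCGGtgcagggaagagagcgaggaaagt
Col4a6: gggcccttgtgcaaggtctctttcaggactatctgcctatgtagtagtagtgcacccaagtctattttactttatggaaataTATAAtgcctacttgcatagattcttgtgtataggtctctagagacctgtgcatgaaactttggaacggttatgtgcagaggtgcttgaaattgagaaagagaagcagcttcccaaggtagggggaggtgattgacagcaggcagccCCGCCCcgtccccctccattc
Col1a2: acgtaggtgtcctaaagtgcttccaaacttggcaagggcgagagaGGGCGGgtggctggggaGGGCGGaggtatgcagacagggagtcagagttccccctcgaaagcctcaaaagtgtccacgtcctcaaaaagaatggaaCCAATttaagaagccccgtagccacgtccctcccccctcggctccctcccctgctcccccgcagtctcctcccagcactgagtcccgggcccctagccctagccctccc
Col3a1: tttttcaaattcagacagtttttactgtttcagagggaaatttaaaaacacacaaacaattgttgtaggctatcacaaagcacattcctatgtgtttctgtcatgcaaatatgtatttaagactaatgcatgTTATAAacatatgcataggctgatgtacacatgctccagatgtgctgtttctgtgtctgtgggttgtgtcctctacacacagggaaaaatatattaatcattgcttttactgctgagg

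On the build GRCm38.p6 the Col4a1 window is chr8:11312827-11313076 on the minus strand and the Col4a2 window is chr8:11312555-11312804 on the plus strand. Col4a1 and Col4a2 are read on opposite strands from annotated starts 21 bases apart, and their first bases overlap. Each window therefore lies within the first bases of the other gene. The Col4a5 window is chrX:141475169-141475418 on the plus strand and the Col4a6 window is chrX:141474077-141474326 on the minus strand, with starts 1343 bases apart. The Col1a2 window is chr6:4505368-4505617 and the Col3a1 window is chr1:45311288-45311537, both on the plus strand. Guanine and cytosine made up 74.4% of the Col4a1 window, 73.6% of the Col4a2 window, 62% of the Col1a2 window, 54% of the Col4a5 window, 47.6% of the Col4a6 window and 35.2% of the Col3a1 window. The CCAAT box was in the windows of Col4a1, Col4a2, Col4a5 and Col1a2, and in 33.8% of all 32851 windows of the table. The GC box was in those of Col4a2, Col4a5, Col4a6 and Col1a2 and in 32.7% of all windows, and the TATA box in those of Col3a1, where 2 matches on opposite strands overlap, and Col4a6, and in 22.8% of all windows. A match is a description of the letters and not a binding site.

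Among the fibrillar chains, those of types I, III and V were detected in every muscle at both background levels tried, the 95th and the 99th percentile. Col1a1 and Col1a2 encode the chains of type I collagen, the main fibril of tendon and of the sheaths of muscle. Col1a1 was at 11.32, 11.44 and 11.32 in muscles 1, 2 and 3, a range of 0.12. Col1a2 was at 12.85, 12.93 and 12.88 in muscles 1, 2 and 3. Muscle 2 was the highest for both chains and the difference between them varied by 0.0759 over the 3 muscles, but the second probe set of Col1a1, at 11.02, 11.07 and 11.15, was highest in muscle 3. Col3a1, whose single chain forms the type III homotrimer that is assembled with type I, was at 13.11, 13.12 and 13.07 in muscles 1, 2 and 3. Since no probe set exceeded 13.75, Col3a1 may lie near the top of the scale, where saturation cannot be seen.

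Type V collagen starts type I fibrils and limits their diameter. Col5a1 was at 9.76, 9.70 and 9.75 in muscles 1, 2 and 3. Col5a2 was at 10.40, 10.40 and 10.29 in muscles 1, 2 and 3. Col5a3, the least widespread of its chains, was at 8.83, 8.74 and 8.81 in muscles 1, 2 and 3. The 3 chains had no shared order, since muscle 2 was the lowest for Col5a1 and Col5a3 and muscle 3 for Col5a2.

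The fibrillar chains best known from cartilage were detected as well, in part only at the lower of the 2 background levels tried. Col2a1, the chain of the main cartilage fibril, was at 6.32, 6.54 and 6.57 in muscles 1, 2 and 3. Col11a1 and Col11a2 encode chains of type XI, the cartilage counterpart of type V. Col11a1 was at 7.36, 7.40 and 7.63 in muscles 1, 2 and 3, and Col11a2 at 6.34, 5.99 and 6.22 in muscles 1, 2 and 3. At a background level set at the 99th percentile (6.83 to 6.91), Col2a1 and Col11a2 were no longer detected in all 3 muscles, while Col11a1 still was. Of 5 cartilage markers, Sox9, Acan, Matn1 and Matn3 were below background in every muscle and Comp was detected, at 6.83, 6.70 and 6.70 in muscles 1, 2 and 3. The mean level of the cartilage list was 4.84, 4.64 and 4.65 in muscles 1, 2 and 3, and all 3 measured bone markers (Ibsp, Sp7 and Dmp1) were below background.

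The basement membrane chains were detected in part. Col4a1 and Col4a2 encode the α1 and α2 chains, which together form the type IV network found in all basement membranes. Col4a1 was at 11.56, 11.54 and 11.56 in muscles 1, 2 and 3. The SD of this probe set, 0.0088, was the smallest among those that stand for the 24 detected chains, while the other probe set of Col4a1, at 9.89, 9.73 and 9.77, had a range of 0.16. Col4a2 was at 9.64, 9.68 and 9.67 in muscles 1, 2 and 3, so that the difference between the 2 chains varied by 0.0544.

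Col4a3 and Col4a4 encode chains that, with α5, form the network of the kidney filter and a few other basement membranes. Both stayed under background throughout, at 4.26, 4.13 and 4.07 for Col4a3 in muscles 1, 2 and 3, and at 3.72, 3.99 and 3.93 for Col4a4. Col4a5, whose chain pairs either with α3 and α4 or with α6, was detected, at 8.10, 8.23 and 8.08 in muscles 1, 2 and 3. Its second probe set stayed under background throughout, at 5.33, 5.48 and 5.07, so the detection of Col4a5 rests on 1 of 2 probe sets. Col4a6 was below background throughout, at 4.81, 4.89 and 5.23 in muscles 1, 2 and 3. A chain below background in whole muscle may still be expressed in a few of its cells.

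Types XV and XVIII, the multiplexins, are proteoglycan collagens of the basement membrane zone, and the C-terminal end of type XVIII is released as endostatin, a fragment that inhibits vessel growth. Col15a1 was at 10.28, 10.35 and 10.41 in muscles 1, 2 and 3. Col18a1 was at 7.09, 7.10 and 7.07 in muscles 1, 2 and 3. Both were detected in every muscle by every probe set. Markers of endothelium, which rests on a basement membrane of its own, were detected in 4 of 4 cases, with a mean level of 7.43, 7.46 and 7.19 in muscles 1, 2 and 3.

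The 3 measured beaded chains, α1, α2 and α3 of type VI, are those mutated in the human muscle disorders named after Ullrich and Bethlem. Col6a1 was at 10.71, 10.55 and 10.68 in muscles 1, 2 and 3. Col6a2 was at 11.69, 11.62 and 11.75 in muscles 1, 2 and 3. Col6a3 was at 11.12, 11.08 and 11.12 in muscles 1, 2 and 3. All 3 chains were lowest in muscle 2. So were 45.8% of the 24 collagens and 29.4% of all genes detected in all 3 muscles. The departure (the level in a muscle less the average of the remaining 2) in muscle 2 was -0.15 for Col6a1, -0.10 for Col6a2 and -0.04 for Col6a3. Muscle 2 stayed the lowest for the same chains when the columns were quantile normalized, with departures there of -0.17, -0.11 and -0.05. It also did when the columns were centred on their medians (-0.14, -0.09 and -0.04). The arrays already had the same median, 6.12, so centring could hardly change which muscle was lowest. Limma's variance test sets each gene's variance against that of genes of like level. By this test none of the 3 had an unadjusted p under 0.05 (unadjusted p = 0.0982 for Col6a1, 0.14 for Col6a2 and 0.749 for Col6a3). That does not show that their levels were equal. The Col6a4, Col6a5 and Col6a6 genes were not analysed here.

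Among the other classes, the fibril-associated chains, which sit on the surface of fibrils, were detected in part. Col14a1, whose chain binds type I fibrils, was at 8.38, 8.30 and 8.43 in muscles 1, 2 and 3. Col16a1 was at 7.58, 7.33 and 7.52 in muscles 1, 2 and 3. Col22a1, whose chain is concentrated at the myotendinous junction where fibres meet tendon, was at 8.59, 8.61 and 8.68 in muscles 1, 2 and 3. That probe set is of a kind that may match several transcripts, and the other one of Col22a1 was at 6.97, 6.77 and 6.89, also detected in every muscle but with muscle 1 the highest. Of 4 measured tendon markers, Tnmd, Fmod and Thbs4 were detected and Scx was not, with a mean level over the list of 8.02, 8.00 and 8.02 in muscles 1, 2 and 3.

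Col12a1, the close relative of Col14a1, lay at the background level. It was at 5.79, 5.51 and 5.92 in muscles 1, 2 and 3, above background in muscles 1 and 3. Col20a1 was above background in muscle 3 alone, at 5.95, by a probe set of the kind that may match several transcripts. Its other probe sets, with means of 4.90 and 3.64, stayed under background throughout. Col19a1 and the cartilage chains Col9a2 and Col9a3 lay under background throughout, with means of 5.25, 5.39 and 5.16.

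Col9a1, a chain of the type IX collagen that coats cartilage fibrils, had the widest range of the 36 collagens. It was at 5.68, 5.15 and 6.22 in muscles 1, 2 and 3, a range of 1.08 on the log2 scale. The low end, muscle 2, is below background and muscle 1 is only just above it, so no fold is given. The other probe set stayed under background throughout, at 5.04, 5.38 and 5.42. The 2 probe sets of Col9a1 thus shared the position of muscle 3 as the highest, but not that of muscle 2.

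Of the 4 measured chains with a transmembrane segment or an anchoring role, 3 were detected close to background. Col25a1, needed in mice for motor axons to enter muscle, was at 6.32, 6.02 and 6.13 in muscles 1, 2 and 3. Col17a1, a hemidesmosome chain of skin, was at 5.79, 6.11 and 6.02, and Col7a1, the chain of the anchoring fibrils under epithelia, was at 6.62, 6.33 and 6.48 in muscles 1, 2 and 3. Col13a1, a transmembrane chain of the neuromuscular junction, was below background at 4.87, 4.99 and 5.09. Epidermal markers were present: Krt5, Krt10 and Krt1 were detected in every muscle and Krt14 in muscle 3 alone, with a mean level over the list of 7.02, 7.20 and 7.08 in muscles 1, 2 and 3. Muscle 1 was the lowest and muscle 2 the highest for Col17a1 and, of the 4 markers, for Krt1 alone, whereas Col7a1 ran the other way. The part of epidermal cells in either level was not tested. Of the short-chain network collagens, Col8a1, a chain found in vessel walls, was at 6.72, 6.82 and 6.61 in muscles 1, 2 and 3, and Col10a1, the chain of hypertrophic cartilage, was below background with a mean of 4.32. Col26a1 was below background too, with a mean of 4.38.

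Several probe sets per gene allowed a second look at detection. Of the 36 genes, 17 had 1 probe set, 16 had 2 and 3 had 3. Among the 14 genes with several probe sets and the highest detected in all 3 muscles, every probe set was detected in 9, among them Col1a1, Col1a2, Col3a1, Col4a1, Col5a1, Col5a2 and Col6a2. For Col4a5, Col5a3 and Col8a1 another probe set was below background in all 3 muscles, which makes 21.4% of the 14, against 51.5% of the 3753 genes of the array in the same position. The second probe set of Col5a3 was at 3.08, 3.33 and 3.03 in muscles 1, 2 and 3, and that of Col8a1 at 3.26, 3.19 and 3.53. For Col11a1 the second probe set was at 6.24, 6.46 and 5.68, below background in muscle 3, and for Col14a1 at 5.59, 6.43 and 5.64, above it in muscle 2 alone. When every probe set had to be above background, 19 of 36 chains were detected in all 3 muscles, against 42.2% of all genes.

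**Figure D2:**
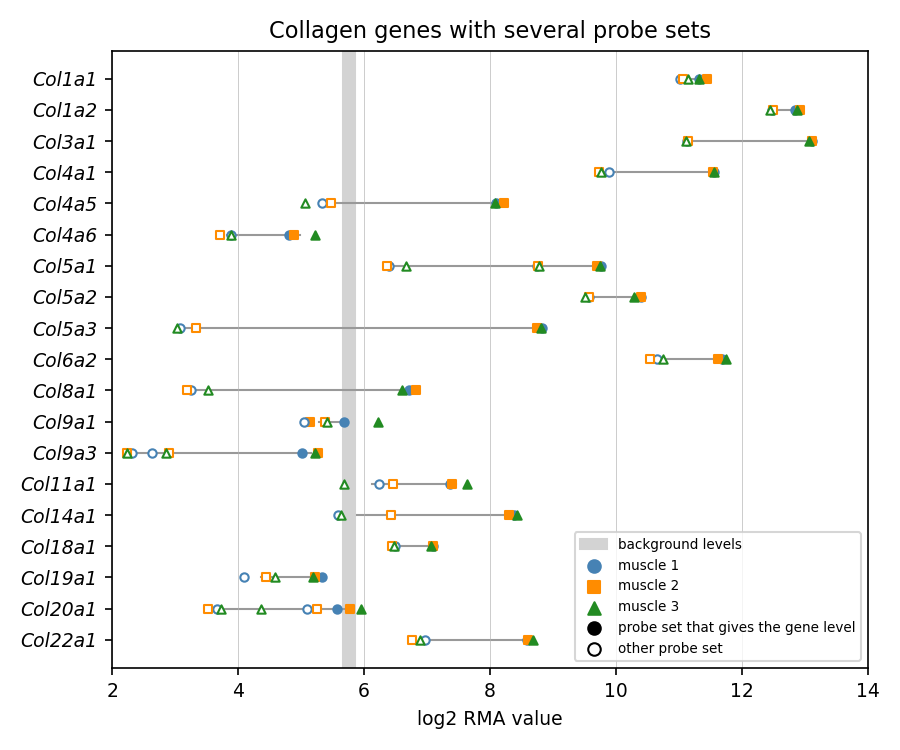
Log2 RMA value (x axis) in each muscle for all probe sets of the 19 collagen genes that have several. Filled symbols show the probe set that gives the gene level and open symbols the others, with the background levels as a grey band. All probe sets of Col1a1, Col1a2, Col3a1, Col4a1 and Col5a2 lie right of the band, while those of Col4a5, Col5a3 and Col8a1 lie on both sides.

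The spread of the collagens between the muscles lay near that of all detected genes, and SD tends to fall as level rises. Over the 24 chains detected in all 3, the median SD was 0.0679 (n = 3 per gene), against 0.0795 over the 7443 genes of the array that were detected in all 3, with median mean levels of 8.71 and 8.02 for the 2 sets. The SD ran from 0.0088 for Col4a1 to 0.178 for Col11a2. In 16 of the 24 chains the range between muscles was under 0.2, and the widest was 0.348, a factor of 1.27, for Col11a2. The median SD by class was 0.0203 for basement membrane, 0.0612 for beaded, 0.0653 for fibrillar and 0.132 for other chains, whose median mean level was also the lowest of the 4 classes, at 6.71.

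The median departure of the 27 chains detected in at least 1 muscle was 0.007, -0.031 and 0.031 in muscles 1, 2 and 3, against 0.027, 0.010 and -0.035 over all genes detected in at least 1 muscle. Muscle 2 was the lowest for 11 of the 24 chains detected in all 3 (45.8%), muscle 1 for 8 (33.3%) and muscle 3 for 5 (20.8%). Over all genes detected in all 3, the shares were 29.4% for muscle 2, 23.7% for muscle 1 and 46.9% for muscle 3. After quantile normalization the lowest muscle was muscle 3 for 12.5% of the chains and for 35.9% of all genes. These shares describe 3 arrays and carry no test.

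**Figure D3:**
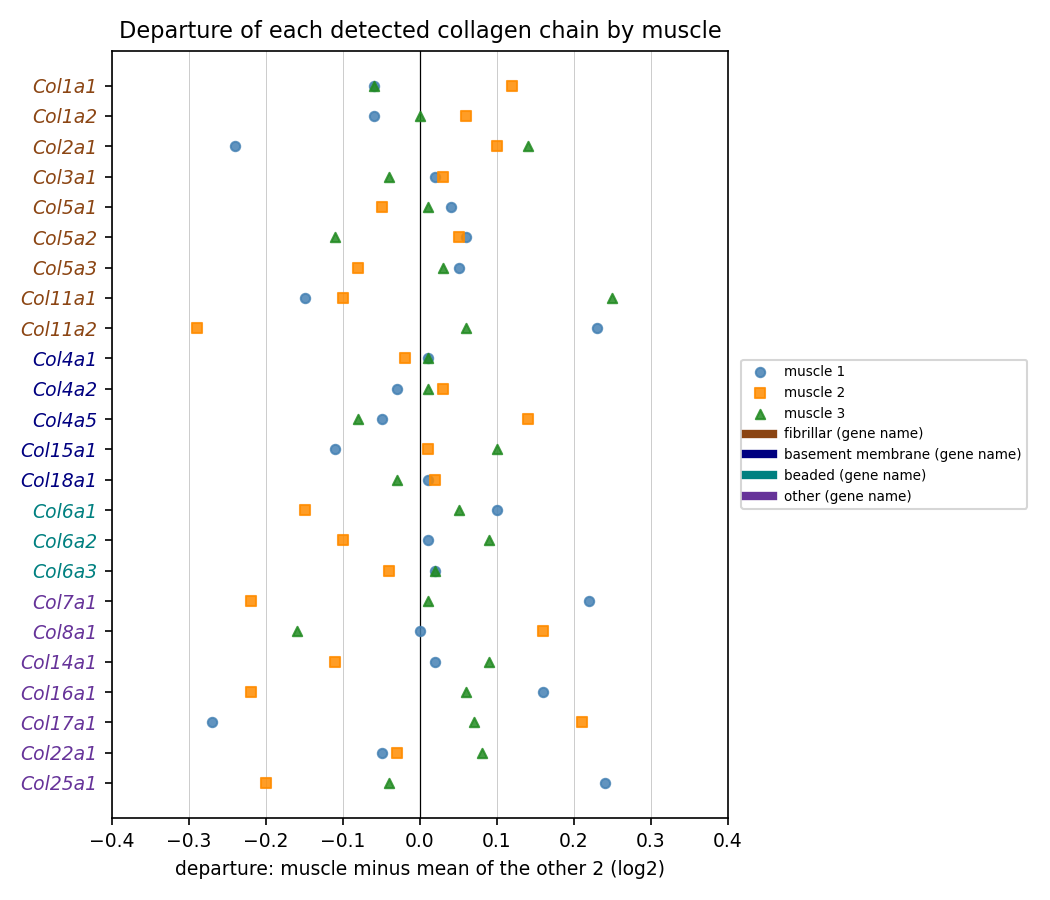
Departure (x axis, log2; level less the average of the remaining 2 muscles) of each of the 24 collagen chains detected in all 3 muscles, 1 row per gene with the gene name coloured by class. All departures lie within 0.3 of zero, and the 3 beaded chains have muscle 2 at their left end.

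No collagen passed limma's variance test after Benjamini-Hochberg adjustment over the 8071 genes detected in at least 1 muscle (0 of 27 at an adjusted p of 0.05), where 0.0743% of all genes did. At an unadjusted p under 0.05 there was 1 of 27 collagens, Col9a1 (unadjusted p = 0.022, adjusted p = 0.907), against 5.01% of all genes. Col9a1 was also the only collagen tested with a range of at least 1 on the log2 scale, which 0.396% of all genes tested had. The lowest of its values, in muscle 2, is below background, and it entered the test through muscles 1 and 3 alone. The lowest adjusted p among the chains detected in all 3 muscles was 0.961, for Col6a1. The 6 genes of the array that passed all had muscle 3 as the muscle farthest from the others, and none of them is a collagen. A p that misses the threshold does not show that the levels were equal.

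**Figure D4:**
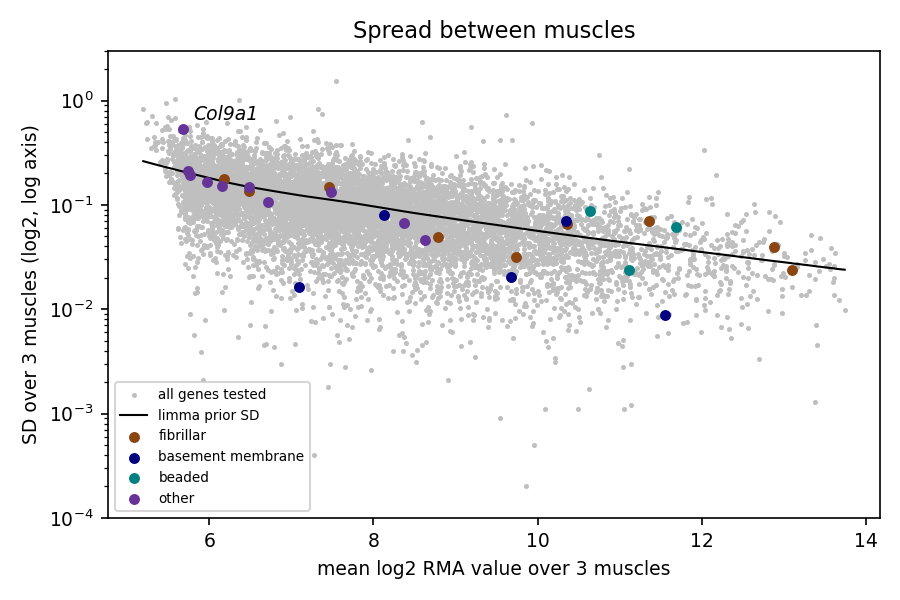
SD over the 3 muscles (y axis, log2 units on a log axis) against mean log2 RMA value (x axis) for the 8071 genes tested in grey and the 27 collagens among them in colour by class, with limma's prior SD as a line. The collagens lie on both sides of the line, with Col9a1 at the upper left and the probe set that stands for Col4a1, at an SD of 0.0088, well below it.

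The genes that modify, process, crosslink or bind collagen were detected in most cases. Of 44 listed genes 30 had a probe set of their own. Of these, 24 (80%) were detected in all 3 muscles, 1 in some and 5 in none, against 60.1% in all 3 over all genes. The list was chosen with earlier results of these data known, so its excess over all genes is not independent evidence. Of the 11 genes of prolyl and lysyl hydroxylation, which stabilise the triple helix and prepare it for crosslinks, 10 were detected in all 3 muscles. P4ha1, a catalytic subunit of prolyl 4-hydroxylase, was at 7.99 ± 0.09 (SD, n = 3), and P4hb, its partner subunit, at 10.60 ± 0.09. P4ha2, the second catalytic subunit, was at 7.73, 7.17 and 7.73 in muscles 1, 2 and 3, a span of 1.48-fold (limma's variance test, unadjusted p = 0.0115, adjusted p = 0.812).

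All 4 measured genes of chaperoning, glycosylation and export were detected. The collagen chaperone Serpinh1 (Hsp47) was at 10.35 ± 0.02, the galactosyltransferase Colgalt1 at 8.52 ± 0.20 and the export receptor Mia3 at 9.24 ± 0.05 (SD, n = 3 each). Colgalt1 was at 8.32, 8.50 and 8.73 in muscles 1, 2 and 3 (limma's variance test, unadjusted p = 0.0275, adjusted p = 0.929). Of 5 genes of propeptide processing 3 were detected, the procollagen C-proteinase Bmp1 at 7.94 ± 0.06 and its enhancers Pcolce and Pcolce2 at 10.72 ± 0.07 and 8.00 ± 0.06. The Bmp1 relatives Tll1 and Tll2 were below background in every muscle, with means of 3.31 and 3.96.

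Of 4 lysyl oxidase genes, whose products form the crosslinks between chains, 3 were detected. Lox was at 9.11 ± 0.04, Loxl1 at 8.86 ± 0.12 and Loxl3 at 7.25 ± 0.06, while Loxl4 was below background with a mean of 5.24. Of 6 collagen receptor genes 4 were detected in all 3 muscles. The integrin subunit Itgb1 was at 8.41 ± 0.14 and the collagen-binding receptor kinases Ddr1 and Ddr2 at 7.96 ± 0.08 and 6.37 ± 0.17. The integrin subunit Itga2 and the leukocyte receptor Lair1 were below background, with means of 4.95 and 3.08. By limma's variance test 0 of the 25 listed genes that were detected in at least 1 muscle passed after adjustment and 2, P4ha2 and Colgalt1, had an unadjusted p under 0.05, against 0.0743% and 5.01% of all genes tested. None of the 25 had a range of 2-fold or more, against 0.396% of all genes tested.

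**Figure D5:**
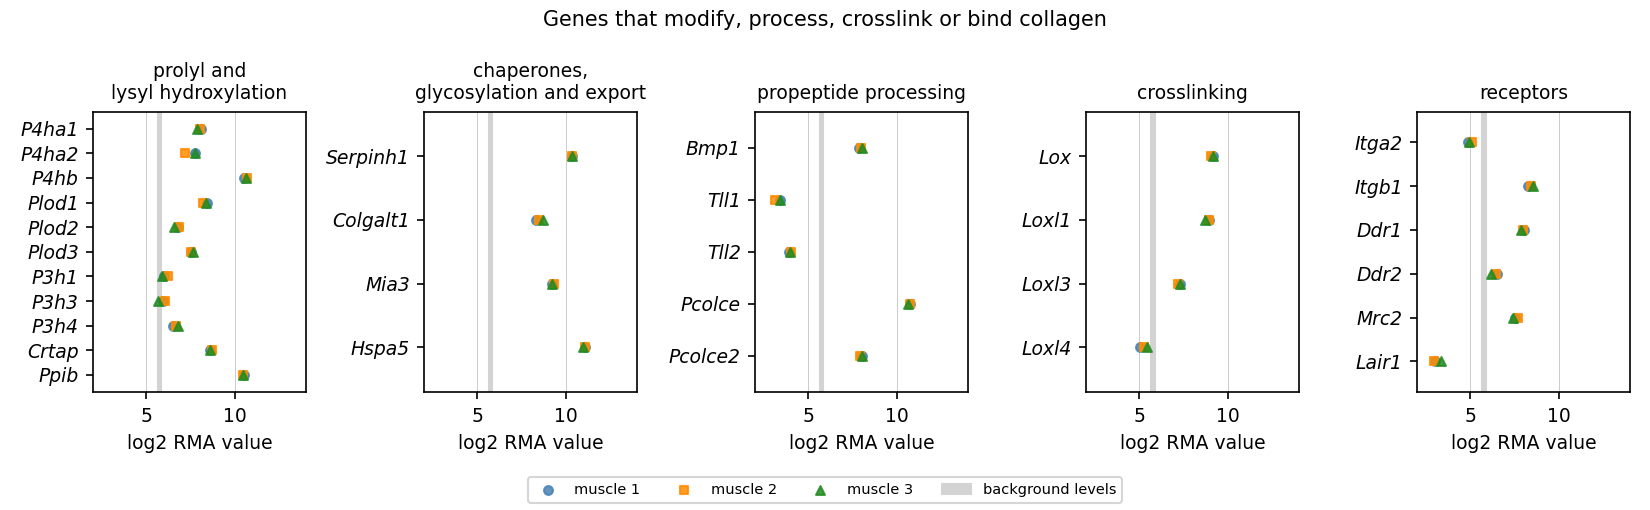
Log2 RMA value (x axis) in muscle 1, muscle 2 and muscle 3 of the 30 measured genes that modify, process, crosslink or bind collagen, in panels by role, with the background levels as a grey band. Tll1, Tll2, Loxl4, Itga2 and Lair1 lie left of the band, and P4ha2 shows muscle 2 below the other muscles.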

How the data were processed

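RNA of 3 normal mouse muscles was measured on 3' expression arrays. The deposited values are on a log2 scale and come from RMA (background correction, quantile normalization and summary of probes), per the submitters' processing notes. Neither its version nor the set of arrays it was run on is given in the sources used here. The table held 22690 probe sets, of which 20393 had 1 gene in GEO's platform annotation, 691 several and 1606 none. Quantile normalization hides a change shared by most genes, and precision is limited by the number of arrays. All 36 collagen symbols matched RefSeq through their Entrez number.

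A gene counted as detected above the 95th percentile of 98 probe sets that belong to genes of other organs. Means and SDs were taken over the 3 muscles. Variances of the 8071 genes detected in at least 1 muscle were tested with limma 3.58.1 in R 4.3.3 against a robust, trended prior. The test was a one-sided F test with 2 degrees of freedom per gene and Benjamini-Hochberg adjustment at 0.05. The procedure was also run on simulated data, drawn with normal noise from the same fitted prior. Such a run shares the assumptions of the test and cannot show how it behaves on these arrays. Python 3.11.15, numpy 2.4.6, pandas 2.3.3 and matplotlib 3.10.9 did the rest.

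Values per muscle are given for every chain detected in all 3 muscles and for those with the widest ranges. Of the genes that modify, process, crosslink or bind collagen, the first 3 detected of each role and all undetected ones are named. The members, classes and lists were chosen with earlier results of these data known. Alternatives changed the scaling, the probe set rule, the background level, the filter, the limma prior and the number of muscles.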

Additional observations from a re-analysis of the deposited data

How the results depend on the processing

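The count of 24 collagens detected in all muscles was 18 at a 99th percentile background. It was 19 when every probe set had to be detected and 23 with probe sets averaged. Over all 12394 genes the count of 7443 fell too, to 5236 when every probe set had to be detected and to 6644 with probe sets averaged. The count over all genes at the 99th percentile is not given here, so these falls are not read as traits of collagens. Leaving out a muscle gave 24 to 26 collagens (26 without muscle 2, when Col9a1 and Col12a1 joined). Detection was then asked only in the muscles left, a looser rule under which the count can hardly fall. Of the 7 other-class chains 3 stayed at the 99th percentile, which dropped Col7a1, Col8a1, Col17a1 and Col25a1. Col9a1 was the 1 collagen with a range of at least 1 on the log2 scale, with its lowest value below background. That count became 0 with probe sets averaged, at the 99th percentile (Col9a1 was no longer tested), and without muscle 2 or muscle 3. It thus ran from 0 to 1 on leaving out a muscle. The median SD of 0.068 ran from 0.041 without muscle 2 to 0.070 without muscle 1, and other settings gave 0.055 to 0.092. Median departures lay between -0.059 and 0.064 in all settings, and that of muscle 1, 0.007, was -0.004 after quantile normalization and -0.001 without muscle 2. The 24 detected genes that modify, process, crosslink or bind collagen were 20 with probe sets averaged or at the 99th percentile. Without muscle 3 they were 25, by the same looser rule. With probe sets averaged the count over all genes fell as well, as given above. Calls by limma's variance test stayed at 0 collagens under every setting run. Of 324 chain levels recomputed under alternatives, 20 moved by over 1 SD. Of these, 18 moved with probe sets averaged, which can change only the 19 genes with several. The other 2 moved without probe sets marked as matching several transcripts, among them Col22a1, 8.63, which became 6.88. A change of background level or filter leaves a level as it was, and leaving out 1 of 3 muscles cannot move a mean by over 1 SD. Levels under those settings were bound to count as unmoved. No paired analysis was possible because there is a single group.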
